A study of Mus musculus with 15 samples.

Results

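The double-stranded RNA sensing and type I interferon pathway was followed through 31 genes, chosen by name for what their products do, out of the 54838 gene identifiers counted. They comprised 5 sensors of double-stranded RNA, 3 genes for the adaptors and the kinase that relay the signal, 2 interferon receptor chains, 5 transcription factors and 16 interferon-stimulated genes. All 31 symbols were found among the identifiers, each had reads in at least 1 library, and 28 had enough reads to be tested. The study asked what TEX15, a partner of the nuclear piRNA pathway, does in silencing transposable elements in the male germ line. The comparison made here was whether the RNA of these 31 genes differed in gonocytes that lack TEX15, set beside the retrotransposon RNA of the same libraries.

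The 6 libraries were made from foetal male germ cells (gonocytes) at E16.5 (embryonic day). Of the 15 samples of the series, 3 were Tex15+/- controls and 3 were Tex15-/- cells of this kind, and all 6 also carried a heterozygous Miwi2 tdTomato reporter allele (Miwi2 tdTom/+). Cells were sorted from dissociated testes on tdTomato, which is expressed from the Miwi2 (Piwil4) locus and so labels gonocytes. Control and knockout therefore shared the Miwi2 reporter copy and at least 1 Tex15 null copy, and there was no Tex15+/+ library. The null allele was made by genome editing of a Tex15 exon, all mice that carried it descended from 1 founder, and the background was mixed B6CBAF1/Crl and C57BL/6N.

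As background, double-stranded RNA inside a cell is read as a sign of virus infection. RIG-I (the product of Ddx58) and MDA5 (Ifih1) bind such RNA in the cytoplasm and signal through MAVS on mitochondria, TLR3 binds it in endosomes, and the kinases TBK1 and PKR (Eif2ak2) pass the signal on or stop translation. IRF3 and IRF7 then switch on interferon genes, and secreted interferon acts on the receptor IFNAR1/IFNAR2, from which a complex that holds STAT2 and IRF9 carries the signal to interferon-stimulated genes. Transcripts of endogenous retroviruses and LINE-1 can form double-stranded RNA, and inhibitors of DNA methylation are known to set off this pathway in cultured cancer cells.

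The DNA element that this complex binds, the interferon-stimulated response element, has a core of GAAA, any 2 bases and GAAA again (TTTC, 2 bases and TTTC when read on the other strand). RefSeq promoter windows of GRCm38.p6, each running from 250 bases before to 50 bases after a start site, were searched for this core on both strands. Because many of the genes were chosen as interferon-stimulated, a raised share follows at least in part from the choice of the list. A window was at hand for 24 of the 31 genes, and 12 of the 24 (50%) held the core, against 3.99% of 27025 genes and 3.44% of all 32851 windows of this length. Among the interferon-stimulated genes it was in 8 of the 11 with a window (Isg15, Ifit1, Ifit3, Oas1a, Oas3, Rsad2, Bst2 and Cxcl10). The other 4 were the sensors Ifih1, Ddx58 and Eif2ak2 and the transcription factor Stat2. The core was found in no window of Mavs, Tbk1, Ifnar1, Ifnar2, Tlr3, Irf1, Irf3, Irf7, Irf9, Ifit2, Ifi44 or Oasl2. Such a match is a stretch of letters and not a measured binding site.

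Printed here are the windows of Isg15, which had the most matches (3), of Bst2 and Ifit1, taken in alphabetical order from the 4 interferon-stimulated genes with 2 (Bst2, Ifit1, Ifit3 and Oas1a), and of Ddx58, which was added after its value had been seen. Each runs 5′ to 3′ on the strand of its gene, and capitals mark the core on either strand. For Isg15 the window is chr4:156200769-156201068 on the minus strand, with 3 overlapping matches that start 78, 72 and 66 bases before the start site. The window of Bst2 is chr8:71537423-71537722 on the minus strand, with 2 overlapping matches that start 130 and 124 bases before the start. For Ifit1 it is chr19:34640639-34640938 on the plus strand, where 2 separate matches lie in the opposite orientation, 104 and 85 bases before the start. For Ddx58 it is chr4:40239776-40240075 on the minus strand, with 1 match in the opposite orientation that starts 2 bases after the start site.
Isg15: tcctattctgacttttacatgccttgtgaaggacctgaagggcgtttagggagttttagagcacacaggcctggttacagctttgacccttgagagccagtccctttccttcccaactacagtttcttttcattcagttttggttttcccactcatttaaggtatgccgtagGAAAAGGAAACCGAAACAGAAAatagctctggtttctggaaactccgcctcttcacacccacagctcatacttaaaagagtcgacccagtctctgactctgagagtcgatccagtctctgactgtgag
Bst2: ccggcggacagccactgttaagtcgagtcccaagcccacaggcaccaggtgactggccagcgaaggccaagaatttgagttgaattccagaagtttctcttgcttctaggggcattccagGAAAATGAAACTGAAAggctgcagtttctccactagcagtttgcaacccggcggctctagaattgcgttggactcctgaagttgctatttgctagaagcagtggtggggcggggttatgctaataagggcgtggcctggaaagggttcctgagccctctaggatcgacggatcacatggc
Ifit1: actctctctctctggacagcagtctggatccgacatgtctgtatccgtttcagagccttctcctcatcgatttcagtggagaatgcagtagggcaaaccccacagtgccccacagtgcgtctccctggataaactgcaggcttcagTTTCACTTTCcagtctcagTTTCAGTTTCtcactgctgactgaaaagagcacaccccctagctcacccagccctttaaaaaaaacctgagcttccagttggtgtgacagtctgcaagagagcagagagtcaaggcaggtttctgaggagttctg
Ddx58: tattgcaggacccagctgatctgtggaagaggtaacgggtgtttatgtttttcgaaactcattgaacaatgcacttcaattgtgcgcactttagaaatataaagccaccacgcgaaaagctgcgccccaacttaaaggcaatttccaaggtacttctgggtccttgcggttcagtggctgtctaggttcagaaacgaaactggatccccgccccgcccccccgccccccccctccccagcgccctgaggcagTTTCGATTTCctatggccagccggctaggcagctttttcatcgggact
Bst2 was the most highly expressed of the 31 genes per length and Isg15 the least, so that windows with overlapping copies of the core stood before genes at opposite ends of the range.

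Each library held between 4893265 and 5697020 read pairs counted on genes, and a gene read below means 1 such pair. Tex15 was lower in every library described as Tex15-/-, with 468.5, 230.2 and 249.3 counts per 1000000 gene reads (CPM, scaled by TMM) against 1509 to 1667 in the controls, a log2 fold change of -2.35 (SE 0.229, adjusted p = 0.0112 by the quasi-likelihood test of edgeR). Germ cell markers summed to between 3691 and 3967 CPM in all 6 libraries, with Ddx4, Dazl and Piwil4 at 893 to 4120 reads each, although Nanos2, a marker of male foetal germ cells, had only 2 to 11. Within that list Dazl (255.1 to 291.7 CPM in the controls, 204.4 to 238.3 in the knockouts) and Nanos3 (3.01 to 4.24 and 1.71 to 2.18) were lower in every knockout library, and Dppa3 averaged 53.4 and 34.3 CPM, with adjusted p of 0.471, 0.587 and 0.521 by edgeR. Knockout libraries 2 and 3 stood apart in markers of other testis cells. The 16 white blood cell markers summed to 29.1 to 39.3 CPM in the controls and 35.7 in knockout 1, but to 135.2 and 157.4 in knockouts 2 and 3, where 15 and 16 of them exceeded every control. Interstitial and mesenchymal markers summed to 76.8 to 91.6 CPM in the controls and knockout 1 and to 1877 and 464.1 in knockouts 2 and 3. Sertoli cell markers were at 50.1 to 56.6 CPM in the controls and at 43.9, 235.3 and 186.5 in the knockouts, and foetal Leydig cell markers at 18.8 to 61.6 against 36.9, 584.3 and 177.3. Endothelial markers were at 84.7 to 95.05 CPM against 80.4, 273.6 and 88.1, and red blood cell markers at 21.8 to 27.1 against 19.8, 25.1 and 33.9, and no marker was at 0 in all libraries. Values are therefore given for every library, and knockout 1 can be read on its own against the controls. Nothing says whether the libraries came from separate embryos, so p-values measure the spread between these libraries, which may be technical.

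In the control libraries much of the pathway was present at a low level. To compare genes, CPM were divided by the length of the exons of each gene in kilobases (CPM per kb). Bst2, which encodes the membrane protein tetherin that holds budding virus on the cell surface, was highest at 17.0 ± 1.9 CPM per kb (SD, n = 3). Ifi27, a small interferon-induced membrane protein, followed with 14.9 ± 2.5, Tbk1 with 14.4 ± 0.59 and Ifnar1 with 13.5 ± 0.89. The order of these 4 neighbours was within their spread, and they stood clear of the next gene, Ddx58, at 4.53 ± 0.46. Among 20360 protein-coding genes with reads in any of the libraries, Bst2 was at percentile 90.9, Ifnar1 at 88.1 and Ddx58 at 69.4.

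Behind them Irf3 (4.24 ± 0.72 CPM per kb), Irf1 (3.53 ± 0.35), Stat2 (3.28 ± 0.41), Mavs (3.06 ± 0.69), Eif2ak2 (3.01 ± 0.67) and Mx1 (2.72 ± 0.25) formed a group whose neighbours overlapped within their SD. These 11 genes lay above the median of the protein-coding genes, 1.72 CPM per kb, and the other 20 below it. At the foot of the order were Oas2 (0.310 ± 0.40), Ifih1 (0.295 ± 0.10), Ifit3 (0.293 ± 0.18) and Isg15 (0.243 ± 0.24), again with no difference beyond their spread. By role, 3 of the 16 interferon-stimulated genes and 8 of the other 15 genes were above the median. Of the 31, 22 (71%) had at least 10 reads in every control library, against 58.3% of protein-coding genes. Because these are bulk libraries, a low level in all gonocytes and a higher level in a few cells cannot be told apart, and likewise fewer cells of a type and less RNA per cell. Markers of other testis cells had reads in the control libraries too, as given above. The part of such cells in these levels was not tested.

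**Figure D1:**
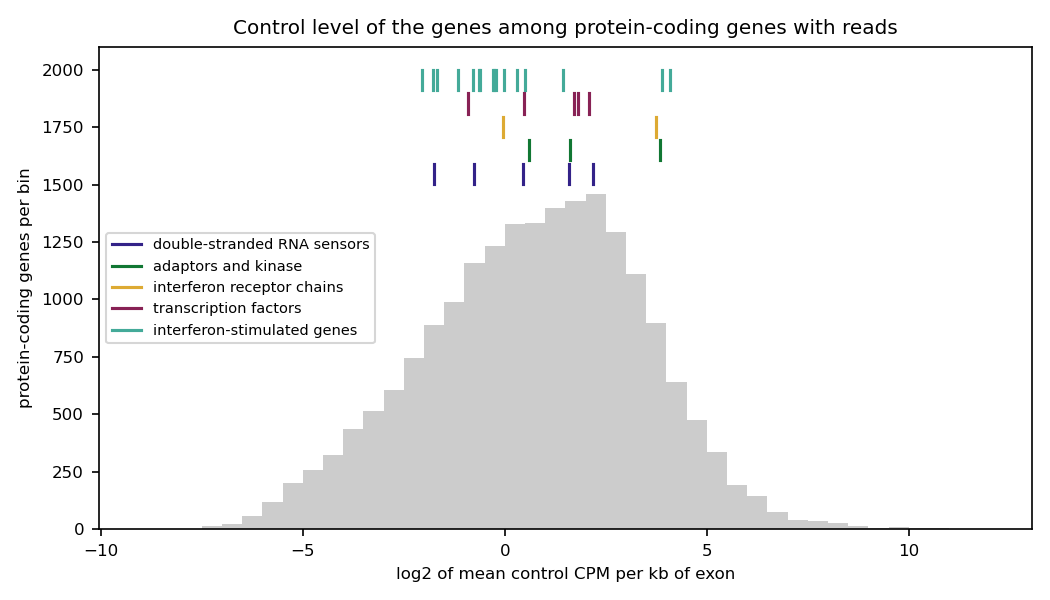
Distribution of the control level of protein-coding genes (x axis, log2 of the mean CPM per kb of the 3 control libraries; y axis, genes per bin), with a coloured tick for each of the 31 genes in a row for its role. Bst2, Ifi27, Tbk1 and Ifnar1 form a separate group on the right, and 13 of the 16 interferon-stimulated genes lie below the median of 1.72 CPM per kb.

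No gene of the pathway passed the threshold of an adjusted p of 0.01 between Tex15-/- and control gonocytes, in either direction. Of the 28 tested, 0 passed (0% of all 16311 genes tested passed), and 0 passed at 0.05 (0.0184% of all genes), with 0.460 as the lowest adjusted p. Tex15 itself did not pass at 0.01 either, and its adjusted p of 0.0112 by edgeR was the lowest of all genes. The lack of a call at this threshold therefore does not show that a gene was unchanged. At an unadjusted p under 0.05, edgeR gave 1 of the 28, Ddx58, which was lower in the knockout, and for all genes the share was 9.2%. DESeq2 also gave 0 of 31 and, at an unadjusted p under 0.05, Ddx58 alone. Of all 42445 genes it gave 14 and 1706. The estimates were spread evenly, 14 above 0 and 14 below, from -0.78 (Cxcl10) to 1.27 (Oas2) on the log2 scale. Their median was 0.04 against 0.00 for all genes (-0.00031 before rounding). The groups did not overlap for 3 genes that were higher in the knockout (Irf9, Oas1a and Ifi44, background 6.51%) and for 5 that were lower (Ddx58, Tbk1, Tmem173, Stat2 and Mx1, background 6.68%).

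**Figure D2:**
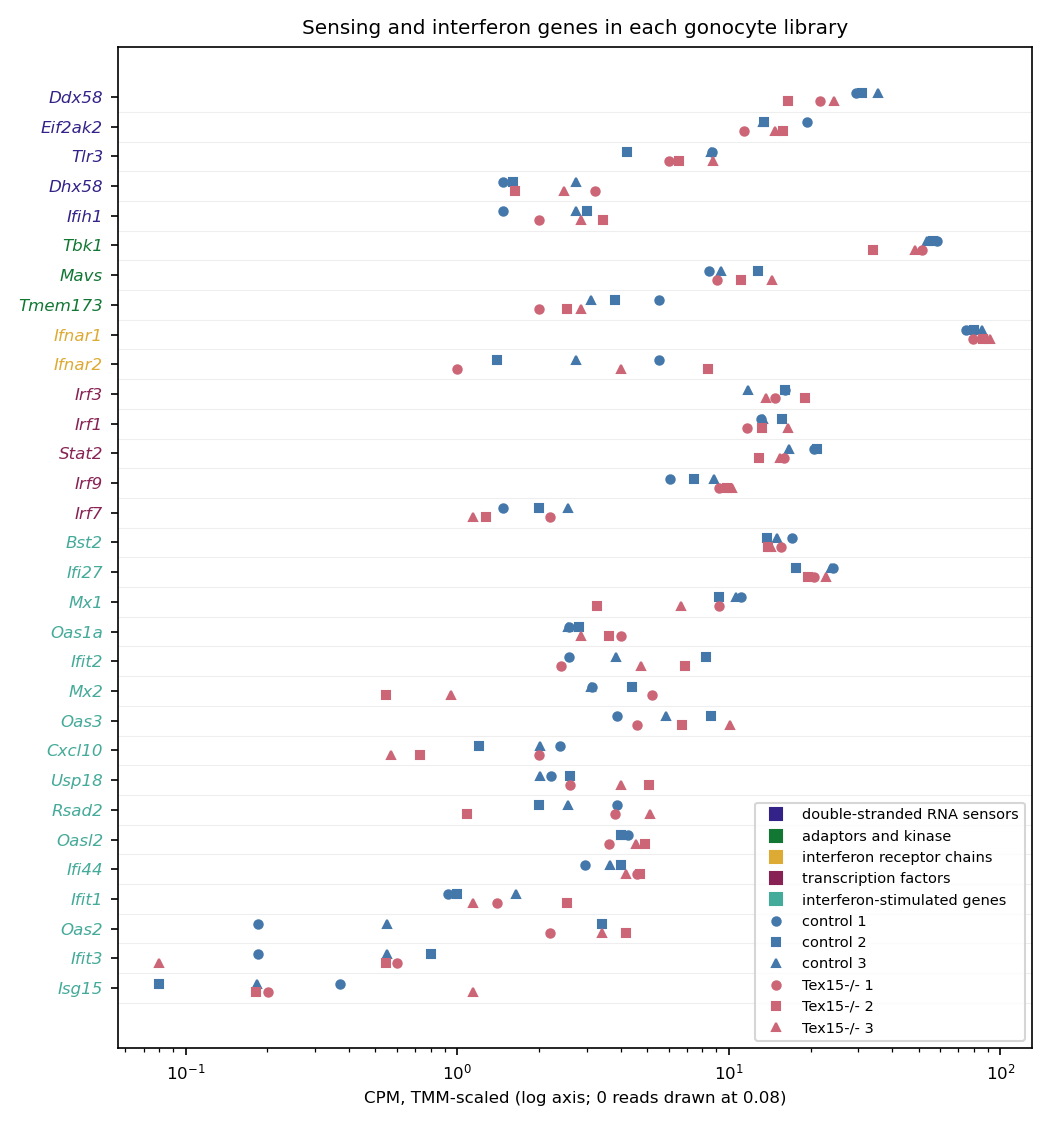
Level of each of the 31 genes (y axis, coloured by role) in each library (x axis, TMM-scaled CPM on a log axis; 0 reads are drawn at 0.08). Blue symbols are the 3 control libraries and red symbols the 3 Tex15-/- libraries, and the red symbols lie wholly to the left of the blue for Ddx58, Tbk1, Tmem173 and Stat2.

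No sensor passed the test, and the best expressed of them per length was lower in each knockout library. Reads of Ddx58, the cytoplasmic sensor RIG-I (chr4:40203773-40239828, minus strand), numbered 159, 154 and 194 in the controls and 108, 91 and 128 in the knockouts. After scaling this was 31.9 ± 3.25 against 20.8 ± 3.97 CPM (SD, n = 3 each), with every knockout library below every control. Its log2 fold change was -0.62 (SE 0.191, 95% interval -1.04 to -0.19, adjusted p = 0.460 by edgeR), and it lay between -0.74 and -0.47 in all 14 alternative analyses, with adjusted p from 0.0975 to 1.00. Knockout 1, whose summed somatic markers were within or just below the control range, was lower too, at 21.6 CPM against 29.3 to 35.6. The part of the somatic cells in these values was not tested.

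Eif2ak2, the kinase PKR that halts translation on double-stranded RNA, had 105, 67 and 73 reads in the controls and 57, 87 and 78 in the knockouts. The endosomal receptor gene Tlr3 had 47, 21 and 47 reads against 30, 36 and 46. For both genes the knockouts lay within or beside the control range, with log2 fold changes of -0.13 (95% interval -0.68 to 0.42) and -0.02 (-0.80 to 0.77). Dhx58, which encodes LGP2, a helicase that modulates RIG-I and MDA5, and Ifih1 (MDA5) had only 8 to 19 reads in any library, and their log2 fold changes of 0.32 and 0.21 had intervals that reached beyond 1, a 2-fold rise. Reads of Dhx58, Tlr3 and Eif2ak2, and likewise of Irf1, Irf3, Irf7, Usp18 and Cxcl10, could also come from overlapping genes on the opposite strand, since the strand setting of the counting is not given in the sources used here. Summed over the 5 sensors, the level was 60.3, 53.1 and 63.0 CPM in the controls and 44.3, 43.97 and 53.3 in the knockouts, an overlap of 1 library on each side. Ddx58 alone gave 31.9 of the mean of 58.8 CPM in the controls.

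Downstream of the sensors, Tbk1, the kinase that activates IRF3, was lower in each knockout library, with 316, 282 and 293 reads in the controls and 256, 187 and 255 in the knockouts. This was 56.2 ± 2.3 against 44.6 ± 9.3 CPM, a log2 fold change of -0.33 (SE 0.163, 95% interval -0.69 to 0.03, adjusted p = 0.569 by edgeR). Knockout 2 lay farthest from the controls, and without it the log2 fold change was -0.17, or -0.13 without knockouts 2 and 3. Mavs, the mitochondrial adaptor, had 46, 64 and 51 reads against 45, 61 and 76, and its groups overlapped (log2 fold change 0.18, 95% interval -0.46 to 0.81). Tmem173 (STING), which relays the sensing of cytoplasmic DNA rather than RNA, had few reads: 30, 19 and 17 in the controls and 10, 14 and 15 in the knockouts. Its groups did not overlap, at 4.15 ± 1.24 and 2.47 ± 0.43 CPM, and the log2 fold change of -0.75 had an SE of 0.444 (95% interval -1.73 to 0.23, adjusted p = 0.611 by edgeR). Without control 1, the highest library, it was -0.48.

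The interferon receptor was measured with very different precision in its 2 chains. Ifnar1 was among the best measured of the 31 genes, with 405, 398 and 465 reads in the controls and 396, 475 and 483 in the knockouts. Its log2 fold change was 0.10 (SE 0.114, 95% interval -0.15 to 0.36), so that a change of 2-fold either way lies outside the interval. Ifnar2 ranged from 7 to 30 reads in the controls and from 5 to 46 in the knockouts, with the highest value in knockout 2. Its interval, -1.06 to 1.99, leaves the direction undetermined, and 315 bases of its exons are shared with the overlapping gene Gm21970 on the same strand.

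Among the transcription factors, Stat2, a part of the complex that carries the interferon signal to the nucleus, was lower in all 3 knockout libraries, with 112, 105 and 91 reads in the controls and 80, 71 and 81 in the knockouts. In CPM this was 19.5 ± 2.42 against 14.8 ± 1.66, and the log2 fold change was -0.40 (SE 0.212, 95% interval -0.86 to 0.07, adjusted p = 0.590 by edgeR). Irf9, which completes the same complex, went the other way, with 33, 37 and 48 reads in the controls and 46, 54 and 54 in the knockouts (7.43 ± 1.36 against 9.77 ± 0.53 CPM). Its log2 fold change was 0.39 (SE 0.275, 95% interval -0.21 to 1.00, adjusted p = 0.653 by edgeR), and 123 bases of its exons overlap Rnf31 on the same strand.

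Irf3, the factor that acts directly after sensing, had 87, 80 and 64 reads against 74, 105 and 72. For Irf1, an early interferon-induced factor, the reads were 71, 78 and 73 against 58, 73 and 87. The groups of both overlapped, and their intervals, -0.41 to 0.65 and -0.54 to 0.50, exclude a 2-fold change. Irf7, which interferon itself induces and which amplifies the response, had 6 to 14 reads in any library and a log2 fold change of -0.39 (95% interval -1.67 to 0.88). A 2-fold rise lies outside this interval and a 2-fold fall inside it, at a depth that limits what the estimate can say.

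The 16 interferon-stimulated genes are the end point of the pathway, and their summed level differed between the genotypes by less than the spread between libraries. It was 81.9, 83.8 and 82.1 CPM in the controls and 82.8, 78.7 and 86.6 in the knockouts, that is 82.6 ± 1.07 against 82.7 ± 3.96. In the controls Ifi27 and Bst2 gave 21.9 and 15.3 CPM of it and Isg15 0.18. The sum therefore says little about the genes with few reads. Of these genes 13 were tested, 7 with estimates above 0 and 6 below. None passed either threshold, and none had an unadjusted p under 0.05 by edgeR or DESeq2.

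Bst2 and Ifi27, the most highly expressed of these genes per length, differed by less than the spread between libraries. Bst2, whose promoter with 2 copies of the core is printed above, had 93, 69 and 82 reads in the controls and 78, 77 and 75 in the knockouts. The reads of Ifi27 numbered 131, 88 and 130 against 103, 108 and 120. Their log2 fold changes were -0.07 (95% interval -0.54 to 0.40) and -0.06 (-0.49 to 0.38), so that a rise of 2-fold lies outside both intervals.

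Mx1, which encodes an antiviral dynamin-like GTPase that is defective in most laboratory strains, had 60, 46 and 58 reads in the controls and 46, 18 and 35 in the knockouts. This was 10.3 ± 0.961 against 6.38 ± 2.98 CPM, a log2 fold change of -0.70 (SE 0.365, 95% interval -1.50 to 0.11, adjusted p = 0.584 by edgeR). The difference rested on knockouts 2 and 3, since knockout 1 was at 9.22 CPM and so level with the lowest control, and without those libraries the log2 fold change was -0.16. Its neighbour Mx2, a polymorphic pseudogene in the annotation, split the knockouts more sharply, with 17, 22 and 17 reads in the controls and 26, 3 and 5 in the knockouts. With all libraries its log2 fold change was -0.68 (95% interval -2.28 to 0.91), and without knockout 1 it was -2.24 (adjusted p = 0.0653 by edgeR). Mx1 and Mx2 were thus low in the libraries with raised somatic markers and near or above the control level in knockout 1. The summed somatic markers of knockout 1 were within or just below the control range, and the part of the somatic cells in these values was not tested.

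Oas1a, Oas2, Oas3 and Oasl2 belong to the oligoadenylate synthetase family, which double-stranded RNA activates. Reads of Oas1a numbered 14 in each control and 20, 20 and 15 in the knockouts, which put all 3 knockouts just above the controls (2.65 ± 0.135 against 3.50 ± 0.589 CPM, log2 fold change 0.40, 95% interval -0.55 to 1.35). Oas2 had 1, 17 and 3 reads in the controls and 11, 23 and 18 in the knockouts. It gave the highest estimate of the 28 genes, 1.27, with an SE of 0.807 (95% interval -0.51 to 3.06, adjusted p = 0.628 by edgeR). Control 2 overlapped the knockouts, and without that library the log2 fold change was 3.16 (adjusted p = 0.885). It was 0.75 without control 1, 0.89 without control 3 and 0.70 without knockouts 2 and 3. Oas3 had 21, 43 and 32 reads against 23, 37 and 53, and Oasl2 had 23, 20 and 22 against 18, 27 and 24, with overlapping groups for both.

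Usp18, an enzyme that removes ISG15 from proteins and dampens the receptor, had 12, 13 and 11 reads in the controls and 13, 28 and 21 in the knockouts. Its log2 fold change was 0.78 (SE 0.460, 95% interval -0.24 to 1.796, adjusted p = 0.611 by edgeR). The higher values were those of knockouts 2 and 3, while knockout 1, at 2.61 CPM, equalled the highest control to the digits given, and without knockouts 2 and 3 the log2 fold change was 0.20. White blood cell markers were high in the same 2 libraries, and their part in it was not tested.

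Ifi44 had 16, 20 and 20 reads in the controls and 23, 26 and 22 in the knockouts, with no overlap between the groups (3.54 ± 0.541 against 4.51 ± 0.283 CPM) and an interval from -0.48 to 1.18. Ifit2, of the family that binds foreign RNA ends, ranged widely within each group, with 14, 41 and 21 reads against 12, 38 and 25. Rsad2, the antiviral enzyme viperin, did so too, with 21, 10 and 14 reads against 19, 6 and 27. The spread within each genotype exceeded the difference between the genotypes for both.

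The chemokine gene Cxcl10 had 3 to 13 reads per library and the lowest estimate, -0.78 (95% interval -2.29 to 0.72). The 3 genes with too few reads for the test were Ifit1, Ifit3 and Isg15. Ifit1 had 5 to 9 reads in the controls and 6 to 14 in the knockouts, and Ifit3 had 1 to 4 and 0 to 3. Isg15, the ubiquitin-like protein that is among the first products of an interferon response and whose promoter held 3 copies of the core, had 2, 0 and 1 reads in the controls and 1, 1 and 6 in the knockouts. Reads aligned to several places were not assigned to genes, so Oas1a and Ifit3, which have close paralogues, may be undercounted.

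The intervals give the precision of each estimate. Of the 28 genes, 17 had an upper limit under a 2-fold rise, 19 a lower limit above a 2-fold fall, and 11 both. Of all 16311 genes tested these were 12304, 12155 and 9237. The median SE was 0.373 for the 28 and 0.278 for all genes, so the 28 were measured less precisely. Among the interferon-stimulated genes alone, 6 of 13 had an upper limit under a 2-fold rise. For the remaining genes the interval included a 2-fold rise or reached beyond it.

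**Figure D3:**
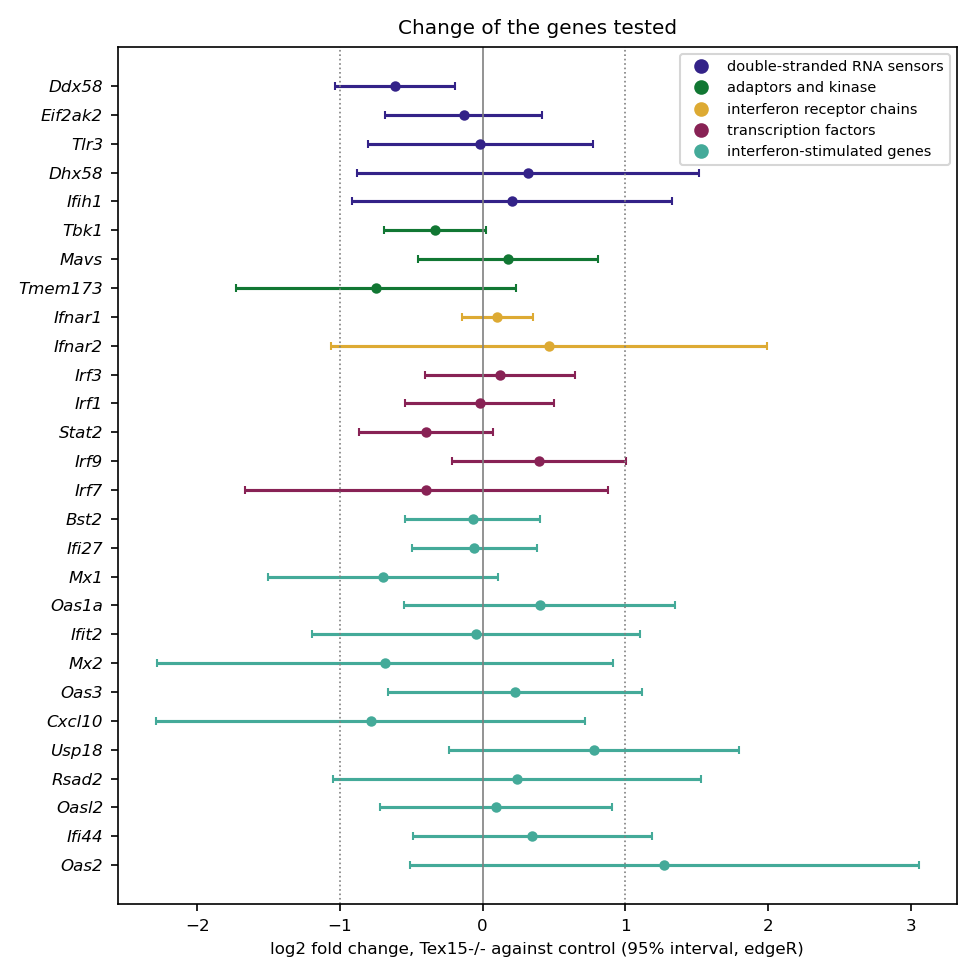
Log2 fold change of Tex15-/- against control for the 28 genes tested (x axis; points are edgeR estimates, bars are 95% intervals, colours are roles, dotted lines mark a 2-fold change). The interval of Ddx58 alone does not reach 0, and 11 intervals lie between the dotted lines.

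The ligands themselves were close to the limit of counting. Of 21 type I, II and III interferon genes, 8 had no read in any library, none had more than 5 reads in a library, and the reads over all 21 came to 29 in the controls and 16 in the knockouts. Ifnb1, the first interferon made after RNA sensing, had 0 reads in all 6 libraries, and 3 counts, the limit that a count of 0 allows, correspond to 0.545 to 0.602 CPM per library. This limit and all counting limits cover counting error only. Summed over the family, the level was 1.47 to 2.03 CPM in the controls and 0.762 to 1.45 in the knockouts. The close similarity of the interferon alpha genes to each other means that reads shared between them were not counted. The 7 chemokine and cytokine genes of the wider list were likewise low, with 2.20 to 4.42 CPM in the controls and 1.82 to 4.95 in the knockouts.

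A wider list of 166 further genes of nucleic acid sensing and interferon signalling was read from the same fit. Of these, 9 had no reads, 100 were tested, and 0 passed an adjusted p of 0.01 or 0.05. At an unadjusted p under 0.05, 6 were higher and 1 was lower, against 6.05% and 3.15% of all genes. The groups did not overlap for 6 in the higher and 6 in the lower direction, against 6.51% and 6.68% of all genes. The median log2 fold change of the 100 was 0.06, and that of the 32 other interferon-stimulated genes among them was 0.17, with 22 above 0 and 10 below, against 0.00 for all genes. The summed level of those other interferon-stimulated genes, 60 in all, was 398.6 to 420.0 CPM in the controls and 440.3, 407.5 and 452.1 in the knockouts, so that knockouts 1 and 3 lay above every control and knockout 2 within the control range.

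Of the named genes in this list, Ifngr1, a chain of the receptor for interferon gamma, had 48, 62 and 49 reads in the controls and 77, 101 and 119 in the knockouts. Its groups did not overlap, at 10.1 ± 2.03 and 18.8 ± 3.63 CPM (log2 fold change 0.90, SE 0.252, adjusted p = 0.460 by edgeR). The partner chain Ifngr2 had 109, 98 and 103 reads against 104, 206 and 153, and in CPM knockout 1 lay just above the controls and the others well above (0.58, SE 0.221, adjusted p = 0.478). Without knockout 2 its log2 fold change was 0.36, and without knockouts 2 and 3 it was 0.09. Jun, an immediate early transcription factor, was high in knockout 2 and to a lesser degree in knockout 3, with 39, 50 and 63 reads against 48, 438 and 125 (1.98, SE 0.599, adjusted p = 0.460). Socs3, which restrains cytokine signalling, had the same order, with 13, 8 and 24 reads against 15, 141 and 41 (2.11, SE 0.687, adjusted p = 0.460). In knockout 1 Jun and Socs3 were within the control range, and they passed the threshold when that library was left out (adjusted p of 0.00272 and 0.00856 by edgeR). They were 2 of the 105 genes of the wider list tested in that fit, in which 388 of all 17520 genes passed. Without knockout 2 instead, their log2 fold changes were 0.81 and 0.95 (adjusted p of 0.844 and 0.898 by edgeR). These are the libraries in which interstitial markers reached 1877 and 464.1 CPM, and the part of the somatic cells in these values was not tested.

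Trim5, a gene of a family that restricts retroviruses, differed in its order. It had 16, 17 and 27 reads in the controls and 55, 34 and 39 in the knockouts, highest in knockout 1 and with no overlap between the groups (3.77 ± 1.05 against 8.21 ± 2.52 CPM, log2 fold change 1.12, SE 0.372, adjusted p = 0.460 by edgeR). Aim2, a sensor of cytoplasmic DNA, was lower in each knockout library, with 36, 32 and 37 reads against 21, 14 and 21 (-0.89, SE 0.356, adjusted p = 0.493). Pnpt1, which encodes the exonuclease PNPase that degrades RNA in mitochondria, double-stranded RNA included, was named after its values were seen. It had 405, 327 and 427 reads in the controls and 680, 404 and 505 in the knockouts (0.48, SE 0.195, adjusted p = 0.493). Knockout 1 was at 136.3 CPM against 65.6 to 78.3 in the controls. When knockouts 2 and 3 were left out the log2 fold change of Pnpt1 was 0.90, which rests on a lone knockout library.

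Adar, the editing enzyme that keeps cellular double-stranded RNA from being sensed, had 270, 220 and 312 reads in the controls and 254, 200 and 212 in the knockouts, with overlapping groups (log2 fold change -0.25, SE 0.164, adjusted p = 0.641 by edgeR). The 21 genes for double-stranded RNA binding and editing proteins, Adar and Pnpt1 included, summed to 2022 to 2171 CPM in the controls and 2087 to 2144 in the knockouts.

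**Figure D4:**
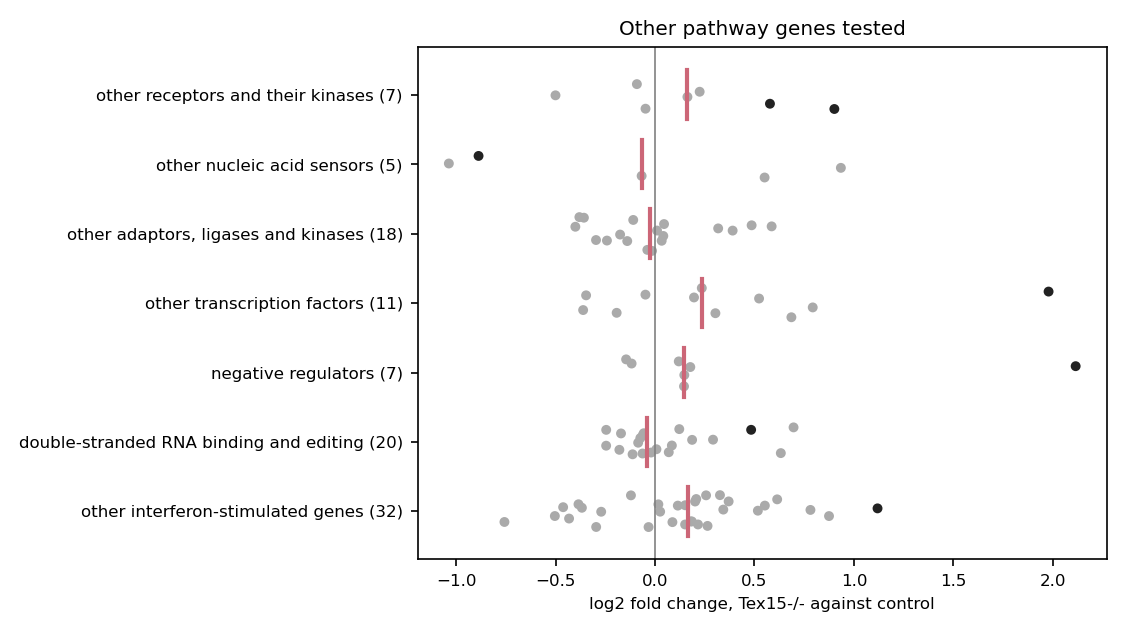
Log2 fold change of Tex15-/- against control (x axis) for the 100 further pathway genes tested, in rows by role with the number of genes in brackets. Black points have an unadjusted p under 0.05, grey points do not, and red bars are row medians; the 2 points near 2 are Jun and Socs3.

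Repeat RNA was set beside these genes library by library, as repeat reads per 1000000 gene reads, each read being counted on the consensus sequence it matched. The repeat counts are of single reads and the gene counts of read pairs, so these values are not in like units. The same scale holds in every library. IAPEZI, an endogenous retrovirus of the intracisternal A particle type, had 4316, 4662 and 5112 in the controls and 15172, 5148 and 13858 in the knockouts. All knockouts were above all controls, knockout 2 only by a small margin (4696 ± 399.1 against 11393 ± 5448, two-sided exact permutation p = 0.10, the smallest that 3 against 3 allows). Per 1000000 reads of genes outside the mitochondrial genome the groups overlapped, with knockout 2 at 5505 against 5870 in control 3 (exact permutation p = 0.20). For L1MdGf_I, a young LINE-1 family, the values were 5487, 6660 and 6298.8 against 11944, 7699 and 10406 (exact permutation p = 0.10). Those of L1MdTf_I were 8932, 10107 and 9348 against 16504, 9135 and 13232 (exact permutation p = 0.30), with knockout 2 in the control range. MMERVK10C was at 2705 to 3481 in the controls and 5170, 1860 and 5452 in the knockouts (exact permutation p = 0.40). Over all consensus sequences the controls had 170764 to 199173 and the knockouts 254822, 116270 and 195727 (exact permutation p = 0.90).

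Knockout 1 thus had the most IAPEZI, L1MdTf_I and L1MdGf_I RNA of the 6 libraries. Its summed somatic markers were within or just below the control range, and it had 0 reads of Ifnb1. Its interferon-stimulated genes summed to 82.8 CPM, within the 81.9 to 83.8 of the controls, and its sensors to 44.3 CPM, below the 53.1 to 63.0 of the controls. Both sums rest mostly on the genes with the most reads. The summed level of the 60 other interferon-stimulated genes of the wider list was above the controls in knockouts 1 and 3, the libraries with the most IAPEZI RNA. It was 440.3 and 452.1 CPM there, against 398.6 to 420.0. In knockout 3 white blood cell markers were also high, at 157.4 CPM, and their part in this was not tested. Of the 32 tested, none passed. The groups did not overlap for 3 in the higher and 1 in the lower direction, against 6.51% and 6.68% of all genes. Of the genes of the wider list named above, Trim5 and Pnpt1, the latter named after its values were seen, were highest in knockout 1. Ifngr1, Ifngr2, Jun and Socs3 were highest in knockout 2 or 3. Of the 28 genes tested, 5 (17.9%) lay above every control library in knockout 1 and 10 (35.7%) below, against 23.1% and 24.1% of all genes. In knockout 2, which had the least repeat RNA of the 3, 10 were above and 9 below (35.3% and 36.5% of all genes). In knockout 3, 12 were above and 8 below (30.3% and 30.6% of all genes). The median deviation of the 28 genes from the control mean was -0.10 on the log2 scale in knockout 1, 0.00 in knockout 2 (0.00040 before rounding) and 0.12 in knockout 3. A relation between repeat RNA and these genes across the 6 libraries was not tested.

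**Figure D5:**
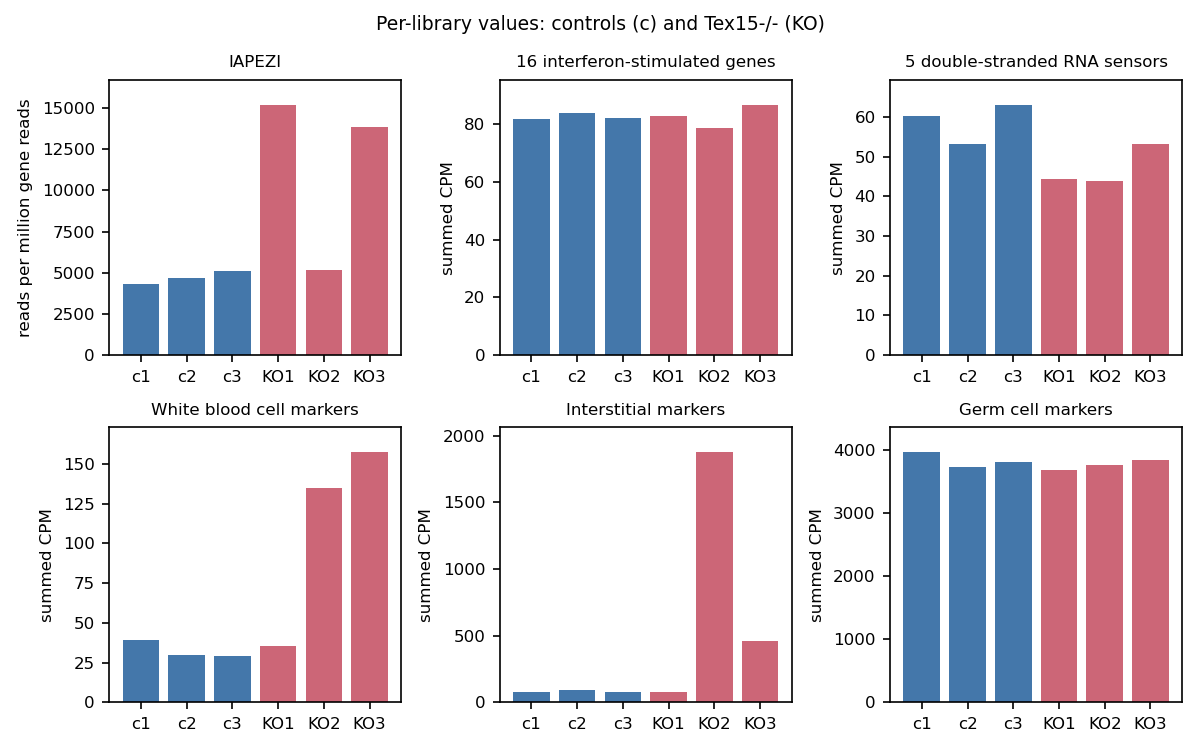
Values of each library (c, control; KO, Tex15-/-) for IAPEZI (reads per 1000000 gene reads) and for the summed CPM of the interferon-stimulated genes, the sensors and 3 groups of cell type markers, on axes that start at 0. IAPEZI is high in KO1 and KO3, somatic markers are high in KO2 and KO3, and the interferon-stimulated genes stay between 78.7 and 86.6 CPM.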

How the data were processed

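RNA-seq of FACS-sorted E16.5 gonocytes was analysed in 3 Tex15+/- and 3 Tex15-/- libraries, grouped by the labelled genotype. The authors depleted ribosomal RNA, aligned reads to GRCm38 with HISAT2 and deposited raw counts per Ensembl gene from HTSeq 0.11.1 (their own comparison used DESeq2 1.26.0). They also deposited counts of reads mapped with bowtie2 to rodent repeat consensus sequences. The strand setting is not given in the sources used here. Rows of unassigned reads (61.3% to 67.3% of each table) and reads on no consensus (95.8% to 97.7%) were left out. Symbols came from GENCODE M21 for 54809 of 54838 identifiers (99.947%).

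The counts of all genes went into edgeR 4.0.16 in R 4.3.3 (TMM, filterByExpr at 10 counts and a total of 15, quasi-likelihood test, Benjamini-Hochberg over 16311 genes, call at an adjusted p under 0.01). Standard errors were derived from the same fit, as the absolute log2 fold change divided by the square root of its F value. Intervals were built symmetrically from them with the t distribution, so both are approximations. The script was tested on simulated counts. Alternatives were DESeq2 1.42.0, other scalings, filters and thresholds, a replicate block, and leaving out each library in turn. Leaving out knockouts 2 and 3 together was chosen after seeing the data. Promoter windows came from RefSeq (GRCm38.p6).

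The 31 genes, the wider lists and the tests were chosen with earlier results of these data known. Values in every library are given for genes with at least 10 counts in every control library. Full statistics are given for the 8 genes of smallest unadjusted p, and of the wider list for 6 such genes and Adar, with the reads of Ifnb1, and for Pnpt1, which was added after its values were seen. A further gene of that list fixed as a check is not reported here. Small RNA and P20 tables were not used.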

Additional observations from a re-analysis of the deposited data

How the results depend on the processing

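In none of the 14 alternative fits at an adjusted p of 0.01, and not at 0.05 in the analysis as reported, did any of the 31 genes pass the threshold, and the lowest adjusted p was 0.0653 (Mx2, without knockout 1). Replicate numbers did not pair the libraries (correlations of same-numbered deviations of -0.144, -0.041 and -0.0092), and with the number as a replicate block 0 of these genes, 0 of the wider list and 0 of all genes were called. The wider list gave 2 calls with no filter on low counts (Jun and Socs3), and 0 to 2 when 1 library was left out, with 2 without knockout 1. Over all genes the calls, 0 as reported, were 488 with no filter (445 higher, 43 lower) and 1 with at least 10 counts in every library. They were 14 by DESeq2 (10 higher, 4 lower), 2 by the newer quasi-likelihood estimate and 3 at an adjusted p under 0.05. With 1 library left out they were 0 to 388, the 388 without knockout 1. The median log2 fold change of the genes tested, 0.04, was 0.12 with no filter, 0.11 by DESeq2, -0.037 with at least 10 counts in every library, -0.11 without knockouts 2 and 3, and -0.069 to 0.13 with 1 library left out, negative without knockout 3 and, at -0.0021, without knockout 2. The difference in all repeat reads, 2335 reads per 1000000 gene reads, turned to -1762 without mitochondrial genes and -0.052 on the log2 scale, and ranged from -30606 to 38670 with 1 library left out. Adar turned to 0.016 without knockouts 2 and 3. The cause was not tested. The 8 genes and the 6 of the wider list given with full statistics kept their direction in the alternative fits. Without knockouts 2 and 3, however, the log2 fold changes of Jun and Socs3 were only 0.0075 and 0.097. The number of the 31 genes with an estimate above 0 ranged from 11 to 18 of 28 when libraries were left out. Depth limits the statements on genes under about 10 reads per library.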
